A study of Mus musculus with 6 samples.

Results

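The interferon-inducible GTPases described here are 10 mouse genes of 2 related families, the guanylate-binding proteins Gbp2, Gbp2b, Gbp3, Gbp5 and Gbp7 and the immunity-related GTPases Igtp, Irgm1, Irgm2, Tgtp1 and Iigp1. They were taken by their symbols in the array annotation, and the symbols had been chosen by their measured log2 difference between the genotypes compared here, so that difference describes the members and supports nothing. Of the 10 genes, 9 had a probe and 8 were detected well enough to be tested, of 8743 genes tested among 17711 with a probe. RNA came from regulatory T cells, a suppressive class of CD4 T cells, of C57/B6 mice, with bone marrow given as the tissue. The 2 groups were Blimp1 +/gfp, with a gfp allele on 1 copy of the gene of the repressor Blimp-1 (Prdm1), and Blimp1 gfp/gfp, with that allele on both copies, each with 3 Illumina arrays. All samples therefore carried at least 1 gfp allele, and no sample without it was compared. From general knowledge of this allele, cells with gfp on both copies lack functional Blimp-1, in every cell type and not in T cells alone, and mice without functional Blimp-1 die before birth. The labels give neither the age of the animals nor a host for such cells nor the way they were isolated. They do not tie the 3 arrays of a group to different animals either, and each p-value then reflects only how these arrays varied, possibly for technical reasons.

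Interferon gamma, a cytokine of T cells and NK cells, binds a receptor of the chains Ifngr1 and Ifngr2, whose kinases Jak1 and Jak2 start the signal. The signal acts through gamma-activated sites (GAS) in promoters and switches on genes such as Irf1, whose product binds interferon-stimulated response elements (ISRE), and guanylate-binding proteins and immunity-related GTPases are among the most strongly induced targets. Their proteins gather on the vacuoles of intracellular parasites and bacteria, disrupt them and expose their content to inflammasomes. Within the immunity-related family, Irgm1, Irgm2 and Igtp are known as regulators that keep the effectors, such as Tgtp1 and Iigp1, inactive on the cell's own membranes, and mice without Irgm1 lose lymphocytes when interferon gamma is made. Blimp-1 is known to bind a sequence that resembles the ISRE.

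The promoters show what the genes share apart from their measured levels. RefSeq promoters (build GRCm38.p6, from 250 bases before to 50 after an annotated start) were at hand for 9 of the 10 genes, and each of the 9 held an ISRE, searched as GAAANNGAAA on both strands. Over all genes with a promoter, 1079 of 27025 held it (3.99%). A GAS, searched as TTCNNNGAA, was found in 5 of the 9 (Gbp5, Gbp7, Igtp, Irgm2 and Tgtp1) against 2582 of 27025 genes (9.55%). The 4 immunity-related GTPases are shown first because 3 of them carry both elements side by side. Each line gives 80 bases in the direction of the gene, 5′ to 3′, with GAS and ISRE matches in capitals.
Igtp, chr11:58199487-58199566, plus strand: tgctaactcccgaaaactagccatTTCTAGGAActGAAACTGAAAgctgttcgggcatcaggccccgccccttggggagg
Irgm2, chr11:58214878-58214957, plus strand: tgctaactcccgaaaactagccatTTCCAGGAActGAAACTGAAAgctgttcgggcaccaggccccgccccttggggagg
Tgtp1, chr11:48992279-48992358, minus strand: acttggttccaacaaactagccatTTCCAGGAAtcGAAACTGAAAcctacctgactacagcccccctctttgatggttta
Irgm1, chr11:48871400-48871479, minus strand: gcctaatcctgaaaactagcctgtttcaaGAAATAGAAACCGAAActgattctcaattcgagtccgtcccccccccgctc

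Positions count from the annotated start, with negative numbers before it. In Igtp the GAS began at -45 and the ISRE at -34, with 2 bases between the elements. The same arrangement, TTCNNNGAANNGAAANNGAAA, began at -75 in Irgm2 and at -88 in Tgtp1. It was found in 5 of 32851 promoters, and the other two belonged to Tgtp2 and Gm12185, genes of the same family. The promoters of Igtp and Irgm2 were identical at 247 of 264 aligned bases (93.6%), with a shared run of 60 bases, so these matches are not independent of one another. Irgm1 held no GAS in its window but 2 overlapping ISRE matches, at -30 and -24.

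The promoters of the guanylate-binding proteins are shown for contrast, since their ISRE lies on the opposite strand in all 5 and appears as TTTCNNTTTC. In this set too, capitals mark GAS and ISRE matches, and in Gbp2 they also mark a match to the core of the Blimp-1 site, AGNGAAAG, that overlaps the ISRE.
Gbp7, chr3:142530248-142530327, plus strand: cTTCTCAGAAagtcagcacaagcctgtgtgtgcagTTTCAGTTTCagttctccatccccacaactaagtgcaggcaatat
Gbp3, chr3:142559970-142560049, plus strand: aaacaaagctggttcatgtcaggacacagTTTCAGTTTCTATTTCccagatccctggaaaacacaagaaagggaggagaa
Gbp5, chr3:142496734-142496813, plus strand: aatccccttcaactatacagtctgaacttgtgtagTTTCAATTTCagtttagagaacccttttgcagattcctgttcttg
Gbp2b, chr3:142594675-142594754, plus strand: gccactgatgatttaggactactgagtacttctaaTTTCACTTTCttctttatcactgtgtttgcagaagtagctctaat
Gbp2, chr3:142620569-142620648, plus strand: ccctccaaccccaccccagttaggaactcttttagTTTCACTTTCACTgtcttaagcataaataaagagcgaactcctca

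The ISRE of Gbp7 began at -53, with a GAS at -87 and another at -106, outside the bases shown. Gbp3 had a pair of overlapping ISRE matches, at -45 and -39 from the first of its 2 annotated starts. The ISRE began at -137 in Gbp2b, at -59 in Gbp2 and at -165 in Gbp5. Gbp5 also held a GAS on either side of it, at -245 and -52, outside the bases shown. The core of the Blimp-1 site was found in 2 of the 9 genes, in Gbp2 and before the second start of Gbp3, against 9.91% of all genes. A match describes the letters in these windows only, and binding was not measured.

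**Figure D1:**
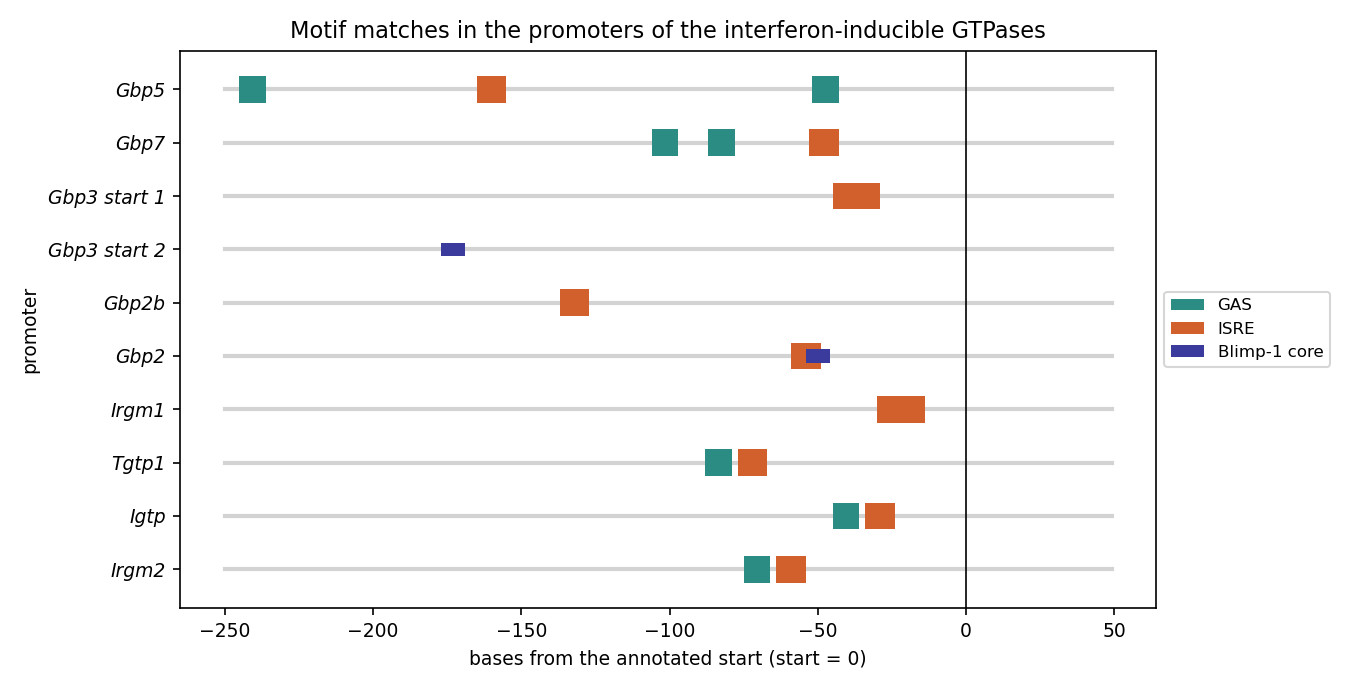
Motif matches in the RefSeq promoters of 9 interferon-inducible GTPases, with the position in bases from the annotated start on the horizontal axis and 1 line per promoter. GAS matches are green, ISRE matches orange and Blimp-1 core matches blue, and the GAS and ISRE of Igtp, Irgm2 and Tgtp1 are the neighbouring pairs that lie between -88 and -25.

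The regulators of the immunity-related family were lower in Blimp1 gfp/gfp and varied little between arrays of a genotype. Values are normalized log2 intensities, which can be compared between arrays for 1 probe but not between probes. Igtp, which resides on the endoplasmic reticulum, was 13.80, 13.70 and 13.58 in the samples labelled Blimp1 +/gfp and 12.02, 12.26 and 12.46 in those labelled Blimp1 gfp/gfp. The groups were more than 1 log2 unit apart at their nearest arrays, and the difference (Blimp1 gfp/gfp minus Blimp1 +/gfp) was -1.45 ± 0.16 (SE; 95% interval -1.83 to -1.06), or 2.73-fold lower. Irgm2, a regulator on the Golgi membrane, was 12.39, 12.53 and 12.66 in Blimp1 +/gfp and 11.36, 11.34 and 11.51 in Blimp1 gfp/gfp. Its groups did not overlap either, and the difference was -1.13 ± 0.14 (SE; 95% interval -1.46 to -0.79).

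Irgm1, the regulator that is linked to autophagy and to the survival of lymphocytes, was 11.44, 11.41 and 11.48 in Blimp1 +/gfp and 10.65, 10.48 and 10.73 in Blimp1 gfp/gfp. All Blimp1 gfp/gfp arrays were lower, by -0.82 ± 0.14 (SE; 95% interval -1.14 to -0.50), 1.77-fold, the smallest difference among the 8 genes tested. A second probe of Irgm1, ILMN_2711172, stayed at background in all 6 samples and gives no check of the first, ILMN_1234539.

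Of the effectors, Tgtp1 (also Irgb6), which coats parasite vacuoles, was 7.96, 7.79 and 7.83 in Blimp1 +/gfp and 7.03, 6.73 and 7.10 in Blimp1 gfp/gfp. The groups did not overlap, and the difference was -0.91 ± 0.15 (SE; 95% interval -1.27 to -0.54). Tgtp1 has a near-identical neighbour, Tgtp2, for which the annotation lists no probe, so the probe may read both. Iigp1 (also Irga6), the other effector, had 3 probes and was not detected with any of them on any array, with raw intensities of 118 to 173 against medians of 157 to 165 over all probes.

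Among the guanylate-binding proteins, Gbp3 and Gbp7 were separated most clearly. Gbp3, a member of the chromosome 3 cluster, was 13.23, 13.33 and 12.77 in Blimp1 +/gfp and 11.73, 11.57 and 11.69 in Blimp1 gfp/gfp. No value of one group reached the other, and the difference was -1.45 ± 0.18 (SE; 95% interval -1.89 to -1.01), 2.73-fold. Gbp7, known for its part in delivering oxidase to phagosomes, was 10.56, 10.39 and 10.31 in Blimp1 +/gfp and 7.62, 9.04 and 8.54 in Blimp1 gfp/gfp. The difference was -2.02 ± 0.34 (SE; 95% interval -2.84 to -1.20), 4.05-fold, and the spread was wider in Blimp1 gfp/gfp (SD 0.72) than in Blimp1 +/gfp (SD 0.13), n = 3 each.

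The remaining 2 measured guanylate-binding proteins varied more between arrays of a genotype. Gbp2b, formerly named Gbp1, was 9.09, 8.77 and 9.75 in Blimp1 +/gfp and 8.38, 5.93 and 6.68 in Blimp1 gfp/gfp. Its difference of -2.20 ± 0.61 (SE) had a 95% interval of -3.65 to -0.76, and Blimp1 gfp/gfp replicate 1 lay within 0.39 of the lowest Blimp1 +/gfp value. Gbp5, which promotes assembly of the NLRP3 inflammasome, was 7.88, 9.41 and 8.51 in Blimp1 +/gfp and 6.56, 7.45 and 7.88 in Blimp1 gfp/gfp. The groups met at 7.88, so Gbp5 was the 1 gene of the 8 whose groups overlapped, and its difference was -1.30 ± 0.47 (SE; 95% interval -2.41 to -0.19). A second Gbp5 probe, ILMN_1218150, was not detected on any array. Gbp2, known for its recruitment to parasite vacuoles, had no probe in the annotation and was not analysed here.

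**Figure D2:**
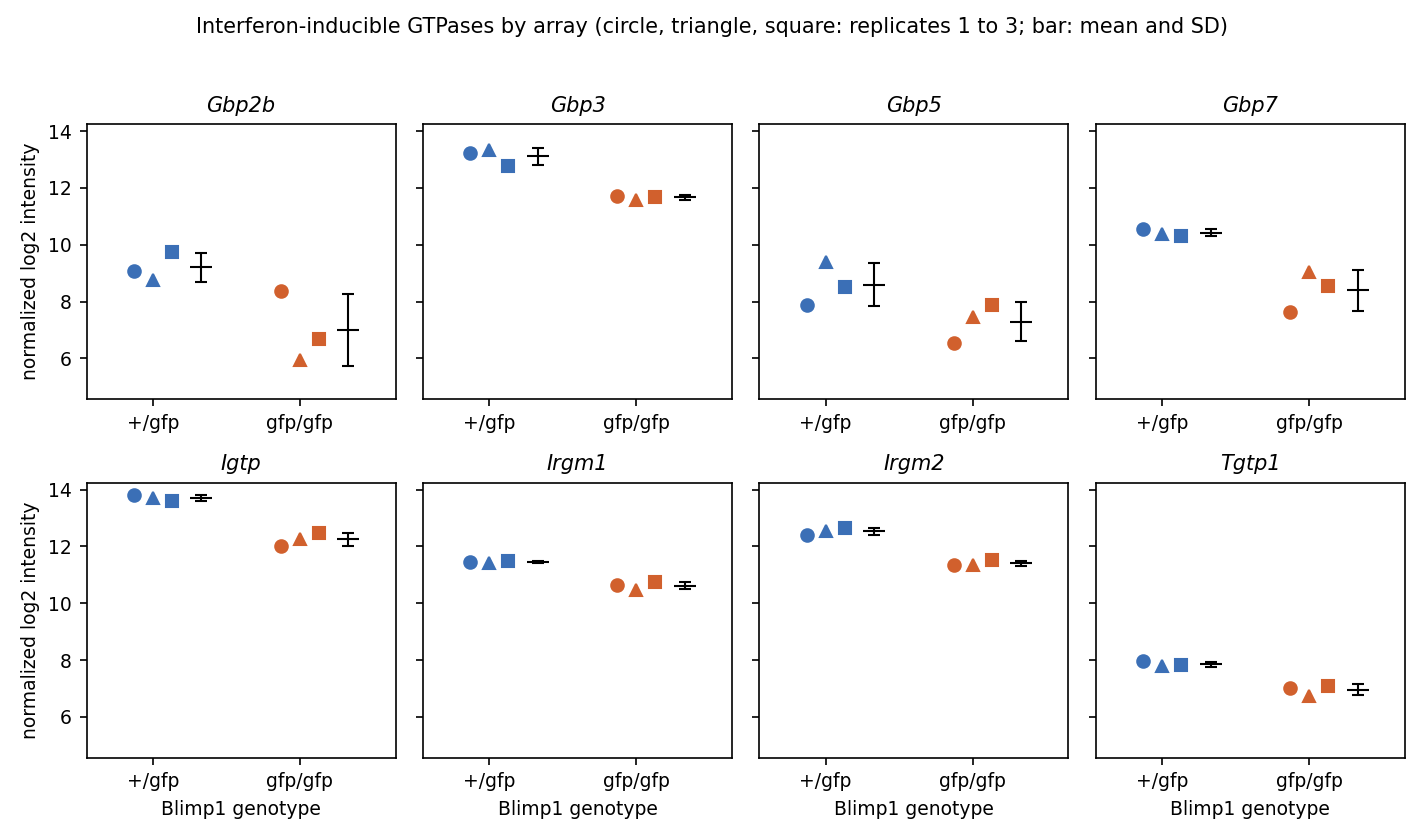
Normalized log2 intensity of the 8 tested interferon-inducible GTPases on each array, with 1 panel per gene and replicates 1 to 3 as circle, triangle and square. Bars give the mean and SD of 3 arrays, and the Blimp1 gfp/gfp values lie below all Blimp1 +/gfp values in every panel but that of Gbp5, where the groups meet at 7.88.

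As a group, 6 of the 8 genes tested were past the threshold of the limma fit over all genes (Benjamini-Hochberg adjusted p under 0.05), and all 6 were lower in Blimp1 gfp/gfp. The exceptions were Gbp2b and Gbp5. Of all 8743 genes, 4.12% were past it in either direction and 1.69% lower, and 7 of the 8 members had no overlap with lower Blimp1 gfp/gfp values against 10.4% of all genes. Because the genes were chosen for this contrast, nothing is read from these shares. The median difference was -1.37 for the 8 genes and 0.03 for all genes tested. The 4 guanylate-binding proteins ranged from -2.20 to -1.30 (median -1.73) and the 4 immunity-related GTPases from -1.45 to -0.82 (median -1.02). The number past the threshold fell to 2 without Blimp1 +/gfp replicate 1, to 2 without Blimp1 +/gfp replicate 2, to 4 without Blimp1 +/gfp replicate 3 or Blimp1 gfp/gfp replicate 2 and to 3 without Blimp1 gfp/gfp replicate 3, while every difference stayed negative. Across these omissions the median lay between -1.51 and -1.22.

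The choice of the genes fixes that their values split by genotype, so their pattern over arrays is a description. With each gene centred on its own mean, the average over the 8 genes was 0.64, 0.76 and 0.71 in Blimp1 +/gfp and -0.73, -0.80 and -0.58 in Blimp1 gfp/gfp. Blimp1 gfp/gfp replicate 2 held the lowest Blimp1 gfp/gfp value for 5 of the 8 genes, replicate 1 for 3 and replicate 3 for none. The genes thus did not share 1 order within Blimp1 gfp/gfp, where replicate 1 was the highest for Gbp2b and the lowest for Gbp5 and Gbp7. Pearson's r of a gene with the mean of the other seven ran from 0.70 for Gbp2b and 0.71 for Gbp5 to 0.99 for Irgm2, over 6 arrays that form 2 groups. Outside the 10 genes, the named genes with the most similar pattern were Eif2s3y (r = 0.996), Arid3b (0.996), Errfi1 (0.995), Pde3b (0.994), Mgmt (0.993), Dusp5 (0.993), Slfn8 (0.990) and Kdm5d (0.990), each over 6 arrays. Eif2s3y and Kdm5d lie on the Y chromosome, and both had signal above background in every Blimp1 +/gfp sample and in none of Blimp1 gfp/gfp.

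Several features of the arrays moved with the genotypes. The labels put each genotype on a separate BeadChip, and the effects of chip and genotype cannot be told apart. The Y-linked transcripts moved with them as well, while Xist, made from the inactive X chromosome, was 9.69, 9.20 and 5.52 in Blimp1 +/gfp and 9.89, 11.37 and 11.02 in Blimp1 gfp/gfp. Blimp1 +/gfp replicates 1 and 2 thus had both Xist and Y-linked signal. Y-linked signal split fully by genotype, so a part of the sex of the mice in the differences cannot be told apart from genotype. Prdm1 itself was 5.76, 5.82 and 5.50 in Blimp1 +/gfp and 7.14, 7.75 and 7.54 in Blimp1 gfp/gfp, and the sources used here do not place its probe relative to the gfp allele, so it is no check of the labels. Detected probes numbered 14694 to 16067 of 46632 per array (31.5% to 34.5%), and the 3 arrays per genotype limit the precision.

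Marker genes placed the samples as T cells. All 5 regulatory T cell markers, Foxp3 among them, were detected on every array, with summed levels on the linear scale of 28520 to 32060 in Blimp1 +/gfp and 15972 to 25099 in Blimp1 gfp/gfp. Foxp3 was 11.85, 12.66 and 12.23 against 11.44, 12.36 and 12.09, and these overlap. Tnfrsf18, the GITR receptor gene, was 13.57, 13.37 and 13.33 against 12.03, 12.60 and 12.31. It fell by 1.11 ± 0.18 (SE; adjusted p = 0.0242 in limma). Tnfrsf18 was the 1 gene of the 5 past the threshold, where 1.69% of all genes were past it and lower. All 5 differences were negative (median -0.50), as were 3958 of 8743 genes, and the summed levels of the 5 did not overlap. Summed levels of 7 T cell markers, mostly of Cd3d, Cd3e and Cd3g, overlapped (100999 to 112513 against 82880 to 107320). None of the 7 was past the threshold, with 5 differences negative and 2 positive. In limma, 3 were lower at an unadjusted p under 0.05 (7.22% of all genes were). These were Trat1 (-1.13 ± 0.36, SE), Cd2 (-0.63 ± 0.20, SE) and Cd5 (-0.32 ± 0.13, SE). In RNA from many cells, fewer cells of a type and less RNA per cell cannot be told apart. The myeloid and granulocyte markers, 12 of 13 with a probe, summed to 2606, 4167 and 14366 in Blimp1 +/gfp and to 4860, 4013 and 3218 in Blimp1 gfp/gfp. Cebpa, a transcription factor gene of that list, rose by 2.37 ± 0.28 (SE; adjusted p = 0.00872 in limma), and it made up more of the sum than the other 11 markers together on each of the 3 Blimp1 gfp/gfp arrays. Without Cebpa the sums were 2185, 3786 and 13588 against 2371, 1191 and 766. The 10 class II and dendritic cell markers summed to 18065, 20328 and 74621 against 13931 to 23012. Blimp1 +/gfp replicate 3 stood apart in both lists, with Itgam, Elane and Flt3 detected on no array. Without that array the median difference of the 8 GTPases was -1.42, and 4 were past the threshold. Summed levels of the B cell markers, 7 of 8 with a probe, overlapped between groups (1251 to 3094 against 1792 to 3820, Pax5 undetected). So did those of the 3 erythroid markers with a probe (138 to 11088 against 1043 to 7950). None of the tested genes of both lists passed the threshold. Differences were positive for 4 of 5 tested B cell markers and for all 3 erythroid markers. In each list 1 gene was higher without overlap, as were 1346 of 8743 genes. These were Cd79a (1.91 ± 0.60, SE; adjusted p = 0.146 in limma) and Klf1 (0.65 ± 0.15, SE; adjusted p = 0.0636 in limma). Of the Blimp1 +/gfp arrays, Klf1 was detected on none and Cd79a on 1, so nothing is read from their separation.

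The nearest tested genes outside the family had differences in both directions. In GRCm38.p6, the 5 guanylate-binding protein genes lie within 141.1 kb of chromosome 3 (142496934 to 142638008), Irgm1 and Tgtp1 within 127 kb of chromosome 11 (48865245 to 48992246), Igtp and Irgm2 within 23.23 kb further along it (58199556 to 58222783), and Iigp1 on chromosome 18. The 18 nearest tested genes outside the 2 families were taken, 3 on each side of the stretches on chromosomes 3 and 11. Genes with Gm or Rik symbols were left out, and the distances ran from 19.98 to 3937 kb. None of the 18 was past the threshold and lower, against 1.69% of all genes. With 18 genes a count of 0 is near that share, and nothing is read from it. Their differences ranged from -0.68 to 1.64 with a median of 0.13. Mrpl22, a mitochondrial ribosomal protein gene 19.98 kb from Igtp, differed by 0.14 ± 0.17 (SE; adjusted p = 0.729 in limma), and Trim41, a ubiquitin ligase gene 47.05 kb from Irgm1, by 0.11 ± 0.13 (SE; adjusted p = 0.729 in limma). Lmo4, a transcriptional cofactor gene 1551 kb from the guanylate-binding protein cluster, was higher by 1.64 ± 0.32 (SE; adjusted p = 0.0394 in limma). It was the 1 gene of the 18 past the threshold, where 2.42% of all genes were past it and higher.

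Other genes of the 2 families were examined from a list of 21, of which 14 had a probe and 7 were tested. In Blimp1 gfp/gfp, 2 of the 7 fell and none rose, where 1.69% of all genes fell and 2.42% rose. Their median difference was -0.78. Here and below, genes counted as having fallen or risen were past the threshold. Gm12250 (also Irgb10), whose protein breaks open bacteria for inflammasome sensing, was 10.31, 10.17 and 10.18 in Blimp1 +/gfp and 8.63, 8.61 and 8.80 in Blimp1 gfp/gfp. The groups were far apart, and it fell by 1.54 ± 0.13 (SE; adjusted p = 0.0056 in limma). Gm4951 (also Ifgga2), a relative of Iigp1, was 9.29, 9.52 and 9.36 in Blimp1 +/gfp and 6.63, 5.80 and 6.57 in Blimp1 gfp/gfp. It fell by 3.05 ± 0.24 (SE; adjusted p = 0.0040 in limma), 8.30-fold, with a 95% interval (-3.63 to -2.47) that overlapped that of Gbp2b. Both calls held in each of 6 omissions of an array. Ifi47 (also Irgd), an effector beside Tgtp1, differed by -0.78 ± 0.20 (SE; adjusted p = 0.0933 in limma), and Irgq, a family member whose sequence has diverged, by 0.28 ± 0.13 (SE; adjusted p = 0.296 in limma). Gbp4, Gbp6, Gbp8, Gbp9 and Gvin1, a giant interferon-inducible GTPase, had probes that were detected on no array.

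Transcripts of interferon gamma and of 1 of its 2 receptor chains were past the threshold and lower. A link between them and the GTPases was not tested. Of 11 genes of interferon gamma signalling, 10 were tested, 3 fell (1.69% of all genes did) and none rose, with a median difference of -0.25. Ifng, the cytokine itself, was 12.73, 12.57 and 10.93 in Blimp1 +/gfp and 9.28, 8.66 and 10.12 in Blimp1 gfp/gfp. The groups did not overlap, although replicate 3 of each genotype lay nearest to the other group, and Ifng fell by 2.72 ± 0.56 (SE; adjusted p = 0.0469 in limma). Its call held in 1 of 6 omissions, that of Blimp1 +/gfp replicate 3, and ended with no filter on dim probes (adjusted p = 0.0724 in limma) and with a robust intensity trend (0.0622), in a range of 0.0132 to 0.154 over the alternatives. Ifngr1, the chain that binds the cytokine, was 12.44, 12.18 and 11.77 in Blimp1 +/gfp and 10.31, 10.54 and 10.80 in Blimp1 gfp/gfp. It fell by 1.58 ± 0.22 (SE; adjusted p = 0.0142 in limma), 2.99-fold.

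Downstream of the receptor, Irf1 was 13.14, 12.94 and 13.11 in Blimp1 +/gfp and 12.00, 11.98 and 12.40 in Blimp1 gfp/gfp. Irf1 fell by 0.94 ± 0.17 (SE; adjusted p = 0.0313 in limma), and its 4 probes differed by -0.97 to -0.37. Its call ended with the mean over its probes (adjusted p = 0.327 in limma) and with median scaling (0.0693), in a range of 0.00642 to 0.327 over the alternatives, and it held in 1 of 6 omissions, that of Blimp1 gfp/gfp replicate 3. Ifngr2, the second receptor chain, was 8.87, 8.50 and 9.65 against 9.41, 9.79 and 9.01, with overlapping groups, and differed by 0.40 ± 0.33 (SE; adjusted p = 0.601 in limma). Jak2, its kinase, differed by -0.37 ± 0.14 (SE; adjusted p = 0.218 in limma) and Socs1, the feedback inhibitor, by -0.39 ± 0.20 (SE; adjusted p = 0.363 in limma).

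**Figure D3:**
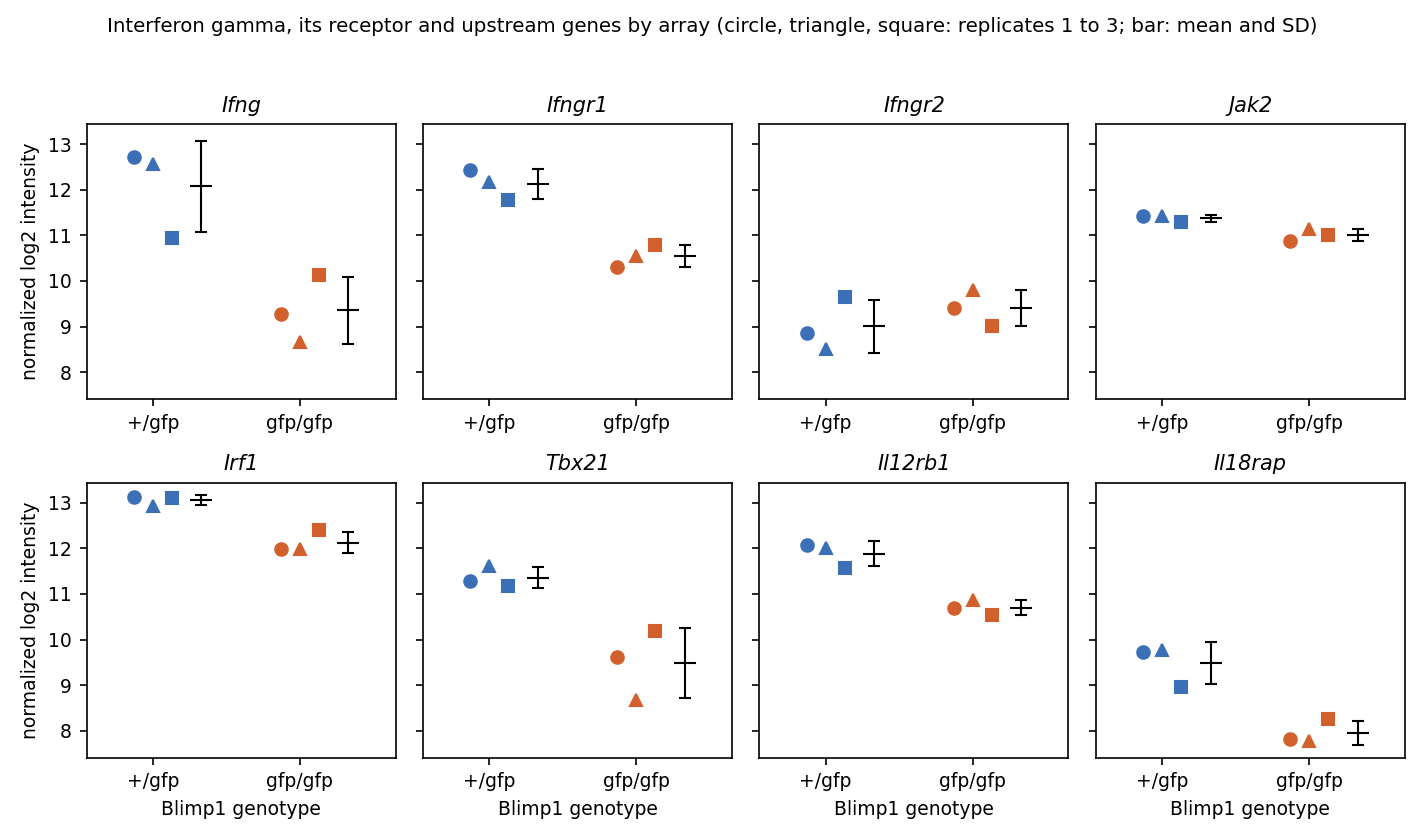
Normalized log2 intensity on each array of Ifng, its receptor chains, Jak2 and Irf1, and of Tbx21, Il12rb1 and Il18rap, which act upstream of Ifng, with replicates 1 to 3 as circle, triangle and square and the mean and SD of 3 arrays as bars. Ifngr2 is the panel in which Blimp1 gfp/gfp is not lower, and Ifng spans 10.93 to 12.73 in Blimp1 +/gfp and 8.66 to 10.12 in Blimp1 gfp/gfp.

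Genes linked to interferon gamma production in T cells were lower in part. Of 9 such genes, 8 were tested, 3 fell, against 1.69% of all genes, and none rose (median difference -0.95). Tbx21, which encodes T-bet, the transcription factor of Th1 cells, fell by 1.87 ± 0.37 (SE; adjusted p = 0.0431 in limma). Il12rb1, a chain of the IL-12 receptor, fell by 1.18 ± 0.19 (SE; adjusted p = 0.0209 in limma), and Il18rap, a chain of the IL-18 receptor, fell by 1.54 ± 0.26 (SE; adjusted p = 0.0270 in limma). Il18r1, its partner chain, differed by -0.01 ± 0.21 (SE) and Stat4, the transcription factor downstream of IL-12, by -0.26 ± 0.17 (SE). Il12rb2, the other chain of the IL-12 receptor, differed by -2.69 ± 0.59 (SE; adjusted p = 0.0577 in limma). It was detected on 3 Blimp1 +/gfp arrays and 1 Blimp1 gfp/gfp array. Cxcr3 differed by -0.72 ± 0.18 (SE; adjusted p = 0.0805 in limma). Eomes, at 0.78 ± 0.41 (SE), was the 1 positive difference of the 8. Markers of NK and CD8 T cells, 7 of 8 with a probe, had summed levels of 18952 to 23058 in Blimp1 +/gfp and 6702 to 15561 in Blimp1 gfp/gfp, but none of the 5 tested passed the threshold (median difference -0.18). The sum mostly reflects Nkg7, a cytotoxic granule gene, at 13.89, 14.21 and 13.93 against 12.88, 11.97 and 13.56 (adjusted p = 0.147 in limma). Without Nkg7 the sums overlapped, at 4114, 4119 and 3345 against 4950, 2689 and 3509. These sums mostly reflect Cd8b1 (11.84, 11.86 and 11.36 against 12.03, 11.13 and 11.46), so their overlap says little about the other markers. Prf1 was 6.59, 6.32 and 5.82 against 5.03, 5.55 and 5.12, and stayed undetected in Blimp1 gfp/gfp. It differed by -1.01 ± 0.24 (SE; adjusted p = 0.0762 in limma). Nkg7 and Prf1 were the 2 of the 5 tested whose groups did not overlap, both lower, against 10.4% of all genes. Prf1 passed the detection filter through its Blimp1 +/gfp arrays alone, so nothing is read from its separation. Klrb1c differed by 0.59 ± 0.43 (SE) and Cd8b1 by -0.14 ± 0.27 (SE), while Ncr1 and Gzma were detected on no array. The part of such cells in the differences was not tested.

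Among other known targets of interferon gamma, 3 of 21 tested genes fell and none rose (median difference -0.30), against 1.69% lower among all genes. Of the 21 differences, 16 were negative and 5 positive. In limma, 10 of the 21 were lower at an unadjusted p under 0.05 (7.22% of all genes were). Cd274, which encodes the inhibitory ligand PD-L1, was 11.87, 11.97 and 11.97 in Blimp1 +/gfp and 10.87, 11.11 and 10.96 in Blimp1 gfp/gfp. It fell by 0.95 ± 0.14 (SE; adjusted p = 0.0145 in limma). Tap1, a chain of the peptide transporter for class I molecules, fell by 0.84 ± 0.16 (SE; adjusted p = 0.0345 in limma), and Irf8, a transcription factor of myeloid cells and some T cells, by 1.79 ± 0.33 (SE; adjusted p = 0.0348 in limma). The class I genes H2-K1 and H2-D1 differed by -0.16 ± 0.16 and -0.07 ± 0.13 (SE), and the immunoproteasome subunit Psmb9 by -0.59 ± 0.13 (SE), none of them past the threshold. The chemokine gene Cxcl9 was 9.37, 9.96 and 10.72 in Blimp1 +/gfp and 8.31, 5.70 and 5.70 in Blimp1 gfp/gfp, a difference of -3.45 ± 0.74 (SE; adjusted p = 0.0540 in limma). Within Blimp1 gfp/gfp, replicate 1 was the highest for Cxcl9 as it was for Gbp2b, and also for Lyz2, a gene of myeloid cells, which was 10.29, 10.55 and 10.94 against 10.28, 7.35 and 7.16 (adjusted p = 0.177 in limma). Of the 7 myeloid and granulocyte markers tested, 4 differences were negative and 3 positive, with Cebpa the 1 past the threshold. The part of myeloid RNA in the differences of Gbp2b and Cxcl9 was not tested.

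Genes of the type I interferon response were mostly lower without passing the test. Of 7 tested genes of type I interferon signalling, none passed in limma, all 7 differences were negative, and 3 were lower at an unadjusted p under 0.05 (7.22% of all genes were). These were Tyk2, the receptor's kinase (-0.54 ± 0.15, SE), Stat2 (-0.59 ± 0.15, SE) and Irf9 (-0.46 ± 0.15, SE), the last a part of the factor that binds the ISRE. Their limma, Benjamini-Hochberg adjusted p-values were 0.117, 0.0967 and 0.176. Of 16 tested antiviral interferon-stimulated genes, 3 fell, where 1.69% of all genes did, and none rose (median difference -0.51). Of the 16 differences, 15 were negative and 1 positive. In limma, 9 of the 16 were lower at an unadjusted p under 0.05 (7.22% of all genes were). The 3 were Isg20, an exonuclease that degrades viral RNA (-1.20 ± 0.18, SE; adjusted p = 0.0176 in limma), Ifit2, which binds viral RNA (-0.91 ± 0.14, SE; adjusted p = 0.0201 in limma), and Samd9l, an antiviral restriction factor (-1.19 ± 0.22, SE; adjusted p = 0.0333 in limma).

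Most genes of the cell machinery with which these GTPases work were not past the threshold. The ATG8 conjugation machinery, which guides guanylate-binding proteins and immunity-related GTPases to their target membranes, had 12 tested genes with a median difference of 0.11. Atg7, the enzyme that activates ATG8 proteins, rose by 0.85 ± 0.15 (SE; adjusted p = 0.0294 in limma), and it was the 1 gene of the 12 past the threshold, against 2.42% of all genes past it and higher. Of 6 tested inflammasome genes, none passed in limma. Without adjustment, 2 were higher and 1 was lower at a p under 0.05, where 11.3% and 7.22% of all genes were. The adaptor gene Pycard differed by 0.70 ± 0.22 (SE; adjusted p = 0.145 in limma) and the pore-forming Gsdmd by -0.57 ± 0.18 (SE; adjusted p = 0.154 in limma).

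Over the 8 lists, 15 of 87 tested genes passed the threshold, 1 higher and 14 lower (4.12%, 2.42% and 1.69% of all genes), and the lists were chosen with earlier results of these data known. Leaving out an array lowered the count to 2 without Blimp1 +/gfp replicate 1, where Gm12250 and Gm4951 kept their calls, and to 3 without Blimp1 +/gfp replicate 2, where Isg20 kept its call too. It was 12 without Blimp1 +/gfp replicate 3, while omitting replicate 1, 2 or 3 of Blimp1 gfp/gfp left 6, 8 and 5. Ifngr1 was past the threshold in 4 of 6 omissions, Cd274 and Isg20 in 3, and the remaining 10 of the 15 in 0 to 2. No difference of these genes changed its sign in any alternative.

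**Figure D4:**
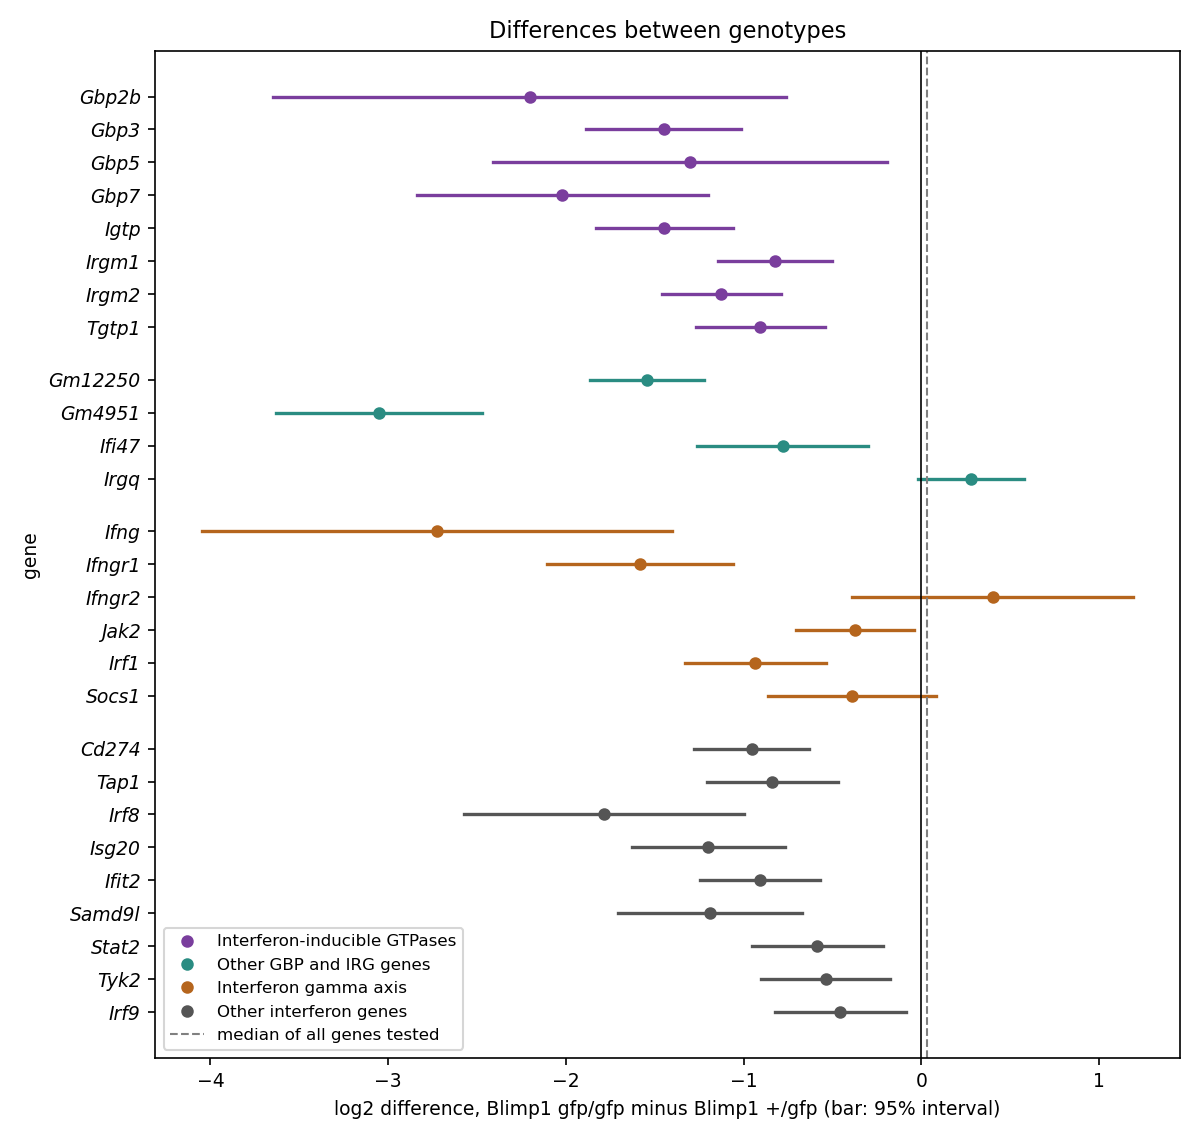
Log2 difference (Blimp1 gfp/gfp minus Blimp1 +/gfp) with its 95% interval for the 8 tested interferon-inducible GTPases, other genes of both families, the interferon gamma axis and further interferon genes, with a dashed line at the median of all genes tested (0.03). Gm4951 and Ifng lie farthest to the left at -3.05 and -2.72, and Irgq and Ifngr2 lie to the right of 0.

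Promoter elements were also counted among all genes past the threshold. Of the genes with a lower level in Blimp1 gfp/gfp and a RefSeq promoter, 15 of 116 held an ISRE (12.9%), or 9 of 110 without the chosen GTPases (8.18%), against 271 of 7180 tested genes (3.77%). Of the genes with a higher level, 6 of 177 did (3.39%). A GAS was found in 21.6% of the lower genes, 19.1% without the chosen GTPases, in 9.6% of the higher genes and in 8.65% of tested genes. The shares without the chosen GTPases still include Gm12250 of the same family, whose promoter holds both elements. These shares describe the promoter windows and were not tested.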

How the data were processed

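Normalized expression of regulatory T cells was measured on 6 arrays, grouped by the labels. The authors deposited a mean bead intensity and, per the file headers, a detection p-value for each probe. The authors' deposited log2 values differed from limma's neqc values by at most 0.0975, and they served as an alternative. BeadStudio and limma were used, per the submitters' processing notes.

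Intensities were processed with neqc (offset 16, quantile normalization, log2) in limma 3.58.1 under R 4.3.3, which compresses dim values. Kept were 15800 probes that 3 or more arrays detected (detection p under 0.05), and the brightest stood for its gene. Symbols came from the platform annotation, where 29976 probes had 1 symbol and 10 several. Genotypes were compared with lmFit and eBayes over 8743 genes, with Benjamini-Hochberg adjustment, a threshold of 0.05 and no covariate. The fit was also run on data simulated with independent normal noise per gene and no effect of chip or sex. That run cannot show how such effects bear on the calls. Of all genes, 212 were higher and 148 lower.

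The 10 members and all lists were chosen with earlier results of these data known. Named were all members, of each pathway list up to 6 genes past the threshold (or the 2 with the smallest p), 9 signalling genes whatever their p, and the 8 genes most like the members (2 unnamed clones passed over). Genes named beside these were chosen after their values were seen. Motifs were searched with Python 3.11.15, alignments made with Biopython 1.88 and figures drawn with matplotlib 3.10.9. Alternatives were other background corrections, normalizations, filters, probe summaries, variance models, thresholds, a replicate block and the omission of each array.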

Additional observations from a re-analysis of the deposited data

How the results depend on the processing

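Counts past the threshold moved with the threshold, the array weights and the omission of single arrays. Main counts were 360 genes in all, 6 chosen GTPases and 15 pathway genes. Array weights gave 827 genes and 26 pathway genes, an adjusted p under 0.1 gave 668 and 26, and one under 0.01 gave 71 genes, 1 GTPase and 2 pathway genes. With an intensity trend, 23 pathway genes passed. Leaving out 1 array gave 79 to 366 genes, 2 to 5 GTPases and 2 to 12 pathway genes. The median difference of the GTPases (-1.37) was -1.23 without background correction, -1.23 with median scaling and -1.24 with array weights, and -1.51 to -1.22 without 1 array. Median scaling moved the median of all genes from 0.03 to 0.16 and gave 294 higher and 120 lower genes (29% lower, against 212 higher and 148 lower, 41.1%, in the main fit), and 5 GTPases remained past the threshold. Igtp was past it in all 19 alternatives, Gbp3 and Irgm2 in 18, Gbp7 in 15, Irgm1 in 11, Tgtp1 in 10, Gbp2b in 2 and Gbp5 in 0, and every difference stayed negative. Replicate numbers were not treated as pairs in the main fit. Deviations from the group means correlated between same-numbered arrays at 0.189, -0.0759 and 0.00102. With 3 arrays per genotype these values cannot show whether the samples were paired. The replicate block gave 171 genes, 3 GTPases and 5 pathway genes, with the median difference at -1.37. The compression of dim values understates differences of genes near background, such as Gbp2b and Tgtp1.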
